A study of Drosophila melanogaster with 35 samples.

Results

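Of 106 C/D box small nucleolar RNA (snoRNA) genes in Drosophila melanogaster, 36 carried a CLAMP iCLIP peak in at least 1 peak list, and the peaks lay towards the 3' side of the RNA. The members are the genes of biotype snoRNA whose symbol begins with snoRNA:Me or snoRNA:U or contains -CD, among 269 snoRNA genes and 18315 annotated genes on the chromosome arms and the mitochondrial genome. Symbols are given here without the prefix snoRNA. CLAMP is a zinc-finger protein known for binding GA-rich DNA and for its part in X chromosome dosage compensation. A member counted as having a peak where a peak of that list overlapped it by at least 1 nt on its own strand. The share of all annotated genes with a peak in any list was not computed. The 36 of 106 and later counts over all lists therefore have no background share beside them, and background shares are given list by list.

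The series compared 2 embryonic cell lines, S2 (male) and Kc (female), in chromatin, nucleoplasm and cytoplasm. No genotype other than that of the lines and no agent other than ultraviolet light of 254 nm, which every library received, is given in the labels. There were 24 libraries precipitated with a rabbit CLAMP antibody, 4 for each combination of line and fraction, and 11 libraries without antibody, 1 in Kc chromatin and 2 in every other combination. iCLIP (individual-nucleotide crosslinking and immunoprecipitation) sequences RNA fragments crosslinked to a protein, and many of its complementary DNAs end next to the crosslink. The analysed data were 5 deposited peak lists. The chromatin lists held 1416 peaks for S2 and 874 for Kc, the nucleoplasm lists 391 for S2 and 546 for Kc, and the Kc cytoplasm list 8. S2 cytoplasm peaks were not analysed here. Peak lists hold no expression levels, so the lines could not be checked against marker genes. With 1 list for a line and fraction there is no spread between replicates, so no test between lists was made. Intervals are Wilson 95% intervals, treat genes or peaks as independent and cover counting error only. No-antibody peaks were not analysed here, and the amount of each snoRNA in the cells was not measured, so an abundant RNA and a frequent contact cannot be told apart. The depth of each list is unknown.

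C/D box snoRNAs are short nucleolar RNAs that carry box C near the 5' end and box D near the 3' end and assemble with the methyltransferase fibrillarin. Most guide ribose methylation of ribosomal RNA (rRNA) by pairing, through a stretch just upstream of box D or of an internal copy of it, with the site to be modified. U3 guides no methylation and is needed for the early cleavages of the rRNA precursor. Most of the others are released from introns of host genes. The symbols name the target, so Me28S-A1322 guides methylation of an adenosine of 28S rRNA, Me18S genes guide 18S rRNA, and Or-CD genes are orphans with no assigned target.

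Chromatin held most of the members with a peak. In S2 chromatin 26 of 106 members had a peak (24.5%, interval 17.3 to 33.5%), beside 3.64% of all annotated genes and 8.11% of annotated non-coding genes under 500 nt in that list. In Kc chromatin 17 of 106 had one (16%, 10.3 to 24.2%), beside 1.17% of all genes and 4.2% of short non-coding genes. The members were thus above the share of all genes in both chromatin lists, as were other small RNA classes. In S2 and Kc chromatin these had 36.2% and 11.5% of 312 tRNA genes and 62.5% and 25% of 32 genes of biotype snRNA (small nuclear RNA).

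Nucleoplasm held fewer. In S2 nucleoplasm 2 of 106 members had a peak (1.89%, 0.519 to 6.62%), beside 0.295% of all genes and 1.2% of short non-coding genes. In Kc nucleoplasm 7 of 106 had one (6.6%, 3.24 to 13%), beside 0.683% of all genes and 1.66% of short non-coding genes. The Kc cytoplasm list had 0 of 106, which by the limit of 3 counts that a count of 0 allows leaves a share of up to 2.83% (the Wilson interval reaches 3.5%), beside 0.0164% of all genes and 0.0461% of short non-coding genes.

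Together 56 peaks fell on the members. In chromatin there were 27 for S2 (1.91% of that list) and 18 for Kc (2.06%), and in nucleoplasm 4 for S2 (1.02%) and 7 for Kc (1.28%). As a share of the list they were therefore close to each other in the S2 and Kc chromatin lists, although the S2 list named more members. On the opposite strand, 0 of 106 members had a peak in any of the 5 lists.

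**Figure D1:**
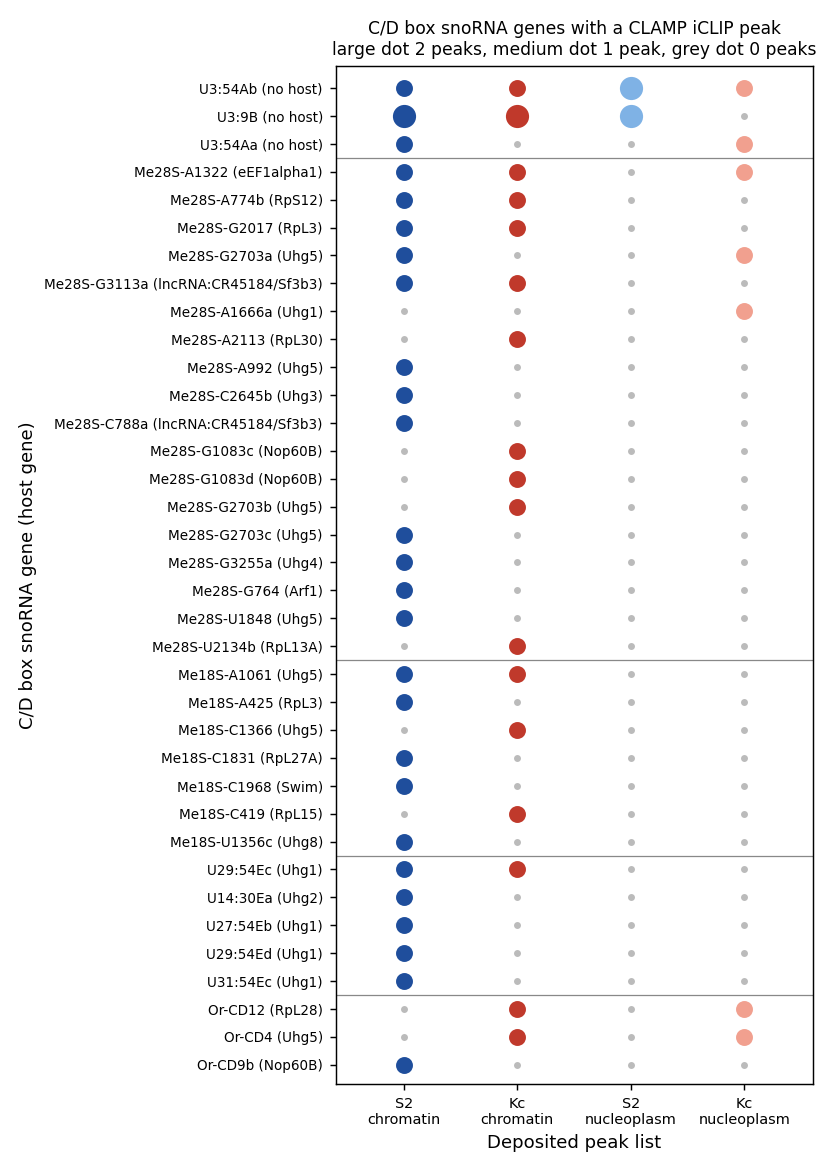
Each row is 1 of the 36 C/D box snoRNA genes with a peak, with its host gene in brackets, grouped from top to bottom as U3, 28S guides, 18S guides, other U-numbered genes and orphans; each column is a peak list, and dot size gives 0, 1 or 2 peaks. The 26 S2 chromatin and 17 Kc chromatin members share 8 rows, and the 3 U3 genes fill 9 of their 12 cells.

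U3 was the member RNA with most peaks. All 3 annotated U3 genes, which have no host gene, had a peak, and in all lists no other member had more than 1 peak in a list. The U3 RNAs are 210 to 213 nt long, while the other members have a median of 79 nt. Over the 4 lists a peak on those others covered a median of 49.3% of the RNA. They thus had little room for a further peak or for one as wide as on U3. U3:54Ab (FBgn0065047; 2R, 17145617 to 17145826, plus strand, 210 nt) had a peak in 4 lists. Its S2 chromatin peak covered nt 53 to 201 of the RNA and its Kc chromatin peak nt 88 to 204. These were the widest peaks on any member in those lists, 149 nt in S2 and 117 nt in Kc, and they shared 114 nt.

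In nucleoplasm U3:54Ab had 2 S2 peaks, at nt 1 to 42 and nt 116 to 182, and 1 Kc peak at nt 106 to 191. The U3:9B gene on the X (FBgn0065046; X, 10348125 to 10348337, plus strand, 213 nt) had 2 S2 chromatin peaks, at nt 116 to 152 and nt 186 to 213, and 2 Kc chromatin peaks, at nt 30 to 84 and nt 112 to 170. Its 2 S2 nucleoplasm peaks, at nt 1 to 42 and nt 117 to 152, began at the same base as the first U3:54Ab peak of that list and 1 nt after the second. Kc nucleoplasm had no peak on U3:9B.

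U3:54Aa (FBgn0065048; 2R, 17143521 to 17143730, minus strand, 210 nt) had 1 S2 chromatin peak at nt 180 to 210 and 1 Kc nucleoplasm peak at nt 116 to 180, which touched at 1 nt. Peaks that began between nt 106 and nt 117 thus recurred, with 6 of them over the 3 genes, while a U3 peak on the first base of the RNA occurred in S2 nucleoplasm and in none of the other lists. The U3 genes are near-identical copies, and the sources used here do not say how reads that map to several copies were treated, so which copy a peak came from is uncertain.

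**Figure D2:**
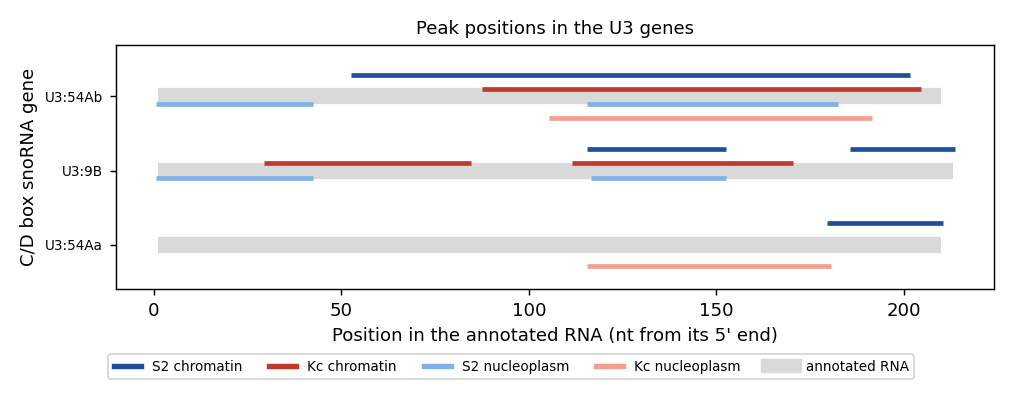
Grey bars are the 3 annotated U3 RNAs drawn to scale in nt from the 5' end, and coloured lines are the peaks of each list. The 2 S2 nucleoplasm peaks that start at nt 1 stand apart from the peaks around nt 117 to 152, a stretch covered by a peak of 3 lists on U3:9B and of 4 lists on U3:54Ab.

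Guides of 28S rRNA were the largest group. Of 53 Me28S genes, 12 were in the S2 chromatin list (22.6%, 13.5 to 35.5%) and 9 in the Kc chromatin list (17%, 9.2 to 29.2%), with 4 in both. S2 nucleoplasm had 0 and Kc nucleoplasm 3. The 4 in both chromatin lists were Me28S-A1322, Me28S-A774b, Me28S-G2017 and Me28S-G3113a.

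Me28S-A1322 lies in an intron of eEF1alpha1, which encodes a translation elongation factor (2R, 11893123 to 11893195, 73 nt), and had a peak in 3 lists. Its S2 chromatin peak covered nt 30 to 51, the Kc chromatin peak nt 6 to 72 and the Kc nucleoplasm peak nt 11 to 70. The S2 peak, 22 nt wide, lay wholly inside both Kc peaks. For Me28S-A774b in RpS12, a ribosomal protein gene (3L, 13023580 to 13023652, 73 nt), the chromatin peaks were nearly the same, nt 33 to 68 in S2 and nt 34 to 69 in Kc.

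Me28S-G2017 in RpL3 (3R, 11224308 to 11224400, 93 nt) had peaks at nt 29 to 58 in S2 chromatin and nt 21 to 52 in Kc chromatin. Me28S-G3113a, inside both Sf3b3 and lncRNA:CR45184 (3L, 827764 to 827843, 80 nt), had them at nt 38 to 75 in S2 and nt 22 to 55 in Kc. The S2 peak reached further towards the 3' end than the Kc peak in both of these RNAs, by 6 nt in Me28S-G2017 and 20 nt in Me28S-G3113a. Me28S-G2703a (2R, 14623517 to 14623607, 91 nt) was shared across fractions, with nt 6 to 69 in S2 chromatin and nt 16 to 89 in Kc nucleoplasm.

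The other Me28S genes with a peak were in 1 list each. In S2 chromatin they were A992, C2645b, C788a, G2703c, G3255a, G764 and U1848. In Kc chromatin they were A2113, G1083c, G1083d, G2703b and U2134b, and in Kc nucleoplasm A1666a.

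For guides of 18S rRNA the shares were close to those of 28S guides. Of 21 Me18S genes, 5 had one in S2 chromatin (23.8%, 10.6 to 45.1%) and 3 in Kc chromatin (14.3%, 4.98 to 34.6%), and none in nucleoplasm. Me18S-A1061 in the non-coding host Uhg5 (2R, 14623042 to 14623117, 76 nt) was in both chromatin lists, with nt 38 to 73 in S2 and nt 16 to 74 in Kc, so that both peaks ended within 3 nt of the 3' end. The S2 chromatin list also held Me18S-A425, Me18S-C1831, Me18S-C1968 and Me18S-U1356c, and the Kc chromatin list Me18S-C1366 and Me18S-C419. Over all lists 18 of 53 Me28S genes (34%) and 7 of 21 Me18S genes (33.3%) had a peak.

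The 13 U-numbered genes other than U3 are named after their vertebrate counterparts. In this group 5 had one in S2 chromatin (38.5%, 17.7 to 64.5%) and 1 in Kc chromatin (7.69%, 1.37 to 33.3%), and the intervals overlapped. The gene in both was U29:54Ec in Uhg1 (2R, 17700472 to 17700559, 88 nt), whose peaks ended at the same base, nt 16 to 76 in S2 and nt 28 to 76 in Kc. The S2 chromatin list added U29:54Ed, U31:54Ec and U27:54Eb, all in Uhg1, and U14:30Ea in Uhg2; U14 is known for a part in rRNA cleavage beside its guide function.

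Among 13 orphan genes 1 had a peak in S2 chromatin, Or-CD9b, and 2 in Kc chromatin, Or-CD12 and Or-CD4. Both Kc genes were also in Kc nucleoplasm. Or-CD4 in Uhg5 (2R, 14624253 to 14624330, 78 nt) had nt 31 to 75 in Kc chromatin and nt 27 to 77 in Kc nucleoplasm, and Or-CD12 in RpL28 (3L, 3221350 to 3221427, 78 nt) had nt 22 to 74 in Kc chromatin and nt 21 to 44 in Kc nucleoplasm. The remaining 3 members, MeU6-A47 and MeU6-C68, which guide the spliceosomal RNA U6, and Me5.8S-G74, had no peak.

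Between the chromatin lists 8 members were shared, which is 30.8% of the 26 in S2 and 47.1% of the 17 in Kc. A further 18 had a peak in S2 and none in Kc, and 9 had one in Kc and none in S2. Over all annotated genes 101 were in both lists, which is 15.1% of the 667 in S2 and 47.2% of the 214 in Kc, and over short non-coding genes 44 were, 25% of 176 and 48.4% of 91. The share of the Kc members found in S2 was thus close to that of all genes. In all 8 shared members the S2 and Kc peaks overlapped, by 18 nt in Me28S-G3113a to 114 nt in U3:54Ab. Where 2 peaks inside an RNA are together longer than it, they must overlap, as with 22 and 67 nt in Me28S-A1322 (73 nt). Overlap alone therefore says little about a shared position, here and between the fractions below. Within the lines, both S2 nucleoplasm members, U3:54Ab and U3:9B, were also in S2 chromatin. So were 45 of 54 of all genes (83.3%) and 25 of 26 short non-coding genes (96.2%) in S2 nucleoplasm. Of the 7 Kc nucleoplasm members, 4 were in Kc chromatin, namely U3:54Ab, Me28S-A1322, Or-CD4 and Or-CD12, again with overlapping peaks in each. Those 4 are 57.1% of the 7, beside 31.2% of the 125 genes of any kind in Kc nucleoplasm and 38.9% of its 36 short non-coding genes. The other 3 were U3:54Aa and Me28S-G2703a, which were in S2 chromatin, and Me28S-A1666a, which was in no other list. The label of the Kc chromatin library without antibody names both Kc lists, so these may share it. Labels tie each analysed list to its 4 CLAMP libraries, except that 1 of the 4 in Kc nucleoplasm does not name it. Controls without antibody also name these lists, both of them in Kc cytoplasm and 1 in every other analysed combination, and how any library was used in the peak calls is not stated.

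The line with more genes bearing a chromatin peak was S2 for C/D genes and Kc for H/ACA genes, the snoRNA class that guides pseudouridine formation. C/D genes with a chromatin peak were 26 in S2 and 17 in Kc, whereas of 114 H/ACA genes 6 (5.26%, 2.43 to 11%) were in S2 chromatin and 22 (19.3%, 13.1 to 27.5%) in Kc chromatin. Of all annotated genes 3.64% were in the S2 and 1.17% in the Kc chromatin list. The intervals cover counting error over genes and no spread between lists, so they cannot compare the lines. In nucleoplasm each line had 1 H/ACA gene with a peak. The difference between the classes was not tested, since each line has 1 list. Peaks covered 12.6% of the bases of C/D genes in S2 chromatin and 9.87% in Kc chromatin, and of H/ACA genes 1.75% in S2 and 6.45% in Kc.

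**Figure D3:**
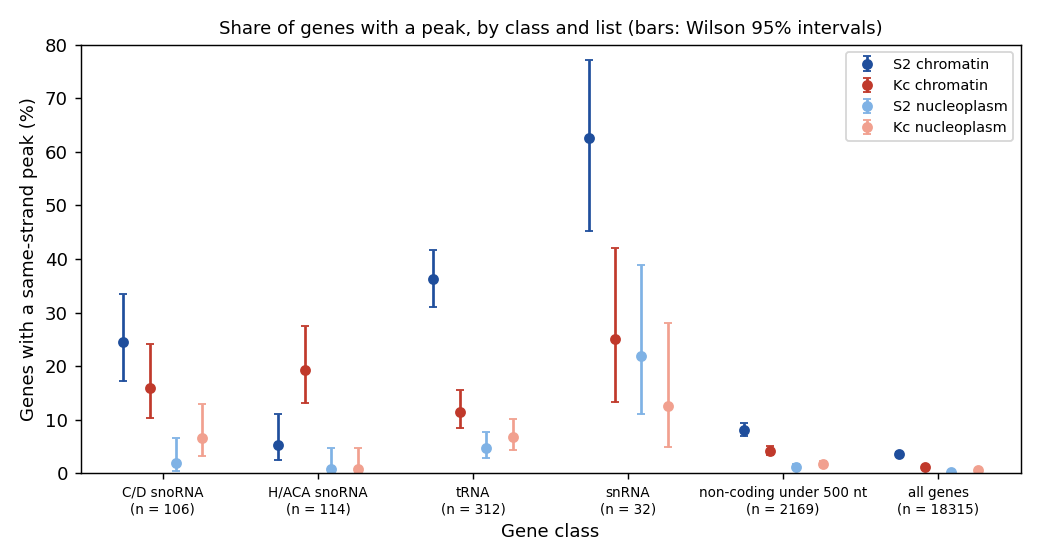
Points give the percentage of genes of a class with a same-strand peak in each list and bars the Wilson 95% interval; gene numbers stand under the class names. C/D genes stood at 24.5% in S2 chromatin and 16% in Kc chromatin, H/ACA genes at 5.26% and 19.3%, and all genes at 3.64% and 1.17%.

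Host genes fall into non-coding genes, ribosomal protein genes and other coding genes, and the intervals of their members' shares overlapped in both chromatin lists. The Uhg genes (U snoRNA host genes) make spliced RNAs that code for no protein, and their introns hold several snoRNAs each. Of 41 members with a non-coding host, 13 had one in S2 chromatin (31.7%, 19.6 to 47%) and 5 in Kc chromatin (12.2%, 5.32 to 25.5%). Of 25 members in ribosomal protein genes, 4 had one in S2 chromatin (16%, 6.4 to 34.7%) and 6 in Kc chromatin (24%, 11.5 to 43.4%). For 23 members in other coding genes the numbers were 4 and 3. A further 9 lie where a coding and a non-coding gene overlap, with 2 and 1. Of the 8 members with no host, the 3 U3 genes had peaks and the other 5 had none.

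Uhg5 was the host with most members bearing a peak. Of its 11 members 8 had one, 5 in S2 chromatin, 4 in Kc chromatin and 2 in Kc nucleoplasm, and Me18S-A1061 was the member in both chromatin lists. The chromatin shares were 45.5% (21.3 to 72%) in S2 and 36.4% (15.2 to 64.6%) in Kc, beside 24.5% and 16% of all members. Of the others, Me28S-A992, Me28S-U1848, Me28S-G2703a and Me28S-G2703c were in S2 chromatin, and Me18S-C1366, Me28S-G2703b and Or-CD4 in Kc chromatin. Such a split was usual. Of 35 members in either chromatin list 8 were in both, and of 780 genes of any kind 101 were. Uhg1 has more members, 14, of which 4 were in S2 chromatin, 1 in Kc chromatin and 1 in Kc nucleoplasm. Nop60B, which encodes the pseudouridine synthase of H/ACA particles, holds 6 members, with Or-CD9b in S2 chromatin and Me28S-G1083c and Me28S-G1083d in Kc chromatin.

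Peaks on the members kept to the annotated RNA. Of 56 peaks, 54 lay wholly within the annotated RNA. The exceptions, both in S2 chromatin, were Me18S-C1831 in RpL27A, whose peak began 8 nt before the 5' end, and Me18S-C1968 in Swim, whose peak passed the 3' end by 2 nt. The 9 non-coding hosts had 0 peaks of their own outside small RNA genes in any list. Of the 28 coding hosts 8 had at least 1, with 9 peaks on exons and 2 in introns.

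In S2 chromatin 15 hosts had a member with a peak and 7 had a peak of their own, and 4 had both: eEF1alpha1, RpL27A, RpL3 and RpS12. In Kc chromatin the numbers were 12, 2 and 1, the last being RpL15. Members that overlap no exon of a host transcript had a peak in any list in 29 of 82 cases. Those that overlap an exon of at least 1 host transcript had one in 4 of 16 cases. The intervals of these groups overlapped in both chromatin lists. Members with a peak other than U3 were as long as those without, with a median of 79 nt in 33 genes (67 to 106 nt) and of 79 nt in 70 genes (46 to 149 nt). The distance to the next host exon had a median of 72 nt in 33 members with a peak and 71 nt in 64 members without.

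Peaks were listed on some lettered copies of a guide and not on others. As for U3, how reads that map to several copies were treated is not stated, so which copy a peak came from is uncertain. There were 24 guided sites or U numbers with at least 2 gene copies, and for 15 of them a copy had a peak. All copies had one for 2 of these, U3 and Me28S-G2703. For 13 a part of the copies did, such as 1 of 3 for Me28S-C2645, Me18S-U1356 and U31, and 2 of 4 for Me28S-G1083. The 3 copies of Me28S-G2703, in neighbouring introns of Uhg5, were split between lists, with G2703a and G2703c in S2 chromatin and G2703b in Kc chromatin.

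On chromosome arms the members with a peak in any list were 4 of 14 on 2L, 21 of 48 on 2R, 7 of 28 on 3L, 3 of 10 on 3R and 1 of 6 on the X. The X-linked one was U3:9B, with 2 peaks in each of S2 and Kc chromatin. The X-linked members without a peak were MeU6-A47, Me28S-G980, Me28S-U3344a, Me28S-U3344b and Or-CD10. With 1 member, no X-linked difference between the male and the female line can be described for this RNA class.

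Within the RNA the peaks sat over the middle and the 3' side and left the 5' end and the last bases mostly bare. Of the 56 peaks, 42 had their midpoint on the 3' side of the RNA's midpoint (75%, 62.3 to 84.5%). In S2 chromatin they were 22 of 27 (81.5%, 63.3 to 91.8%) and in Kc chromatin 13 of 18 (72.2%, 49.1 to 87.5%). In S2 nucleoplasm they were 2 of 4 and in Kc nucleoplasm 5 of 7. Without U3 the numbers were 18 of 23 in S2 chromatin and 11 of 15 in Kc chromatin.

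With U3 left out, the median midpoint was at 61.1% of the RNA's length from the 5' end in S2 chromatin (29.9 to 83.5%) and at 61.5% in Kc chromatin (25.3 to 80.8%). The medians of the lines were close to each other. Peak widths were further apart, with a median of 36 nt in S2 (22 to 64 nt) and 45 nt in Kc (25 to 67 nt), or 47.2% and 55.7% of the RNA. The median start was at nt 32 in S2 and nt 23 in Kc, and the median end lay 11 nt before the 3' end in S2 and 4 nt before it in Kc.

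When each RNA with a peak was divided into 3 segments of equal length, peaks covered 20.4% of the bases of the 5' segment, 70% of the middle and 57% of the 3' segment in S2 chromatin, over 23 members other than U3. In Kc chromatin, over 15 members, they covered 25.1%, 81.6% and 61.4%. In Kc nucleoplasm, over 5 members, they covered 31.6%, 93.8% and 56.9%. For members other than U3, the middle segment was covered most in these 3 lists, then the 3' segment, then the 5' segment. Their peaks covered a median of 47.2% of the RNA in S2 chromatin, 55.7% in Kc chromatin and 65.4% in Kc nucleoplasm. A peak of such width inside an RNA must cover part of the middle segment wherever it lies. Narrower peaks need not, such as that of Me18S-U1356c in S2 chromatin at nt 55 to 77 of 79 nt. That the middle came first therefore says little about position. Why the 3' segment was covered more than the 5' segment was not tested. For U3 the order of the segments varied between lists. Its 5', middle and 3' segments were covered to 8.53%, 46% and 61.6% in S2 chromatin, to 29.8%, 68.8% and 65.2% in Kc chromatin, to 59.6%, 36.2% and 36.9% in S2 nucleoplasm and to 0%, 42.9% and 65% in Kc nucleoplasm. The 3' segment of U3 was covered most in S2 chromatin and Kc nucleoplasm, the middle in Kc chromatin, and the 5' segment in S2 nucleoplasm.

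**Figure D4:**
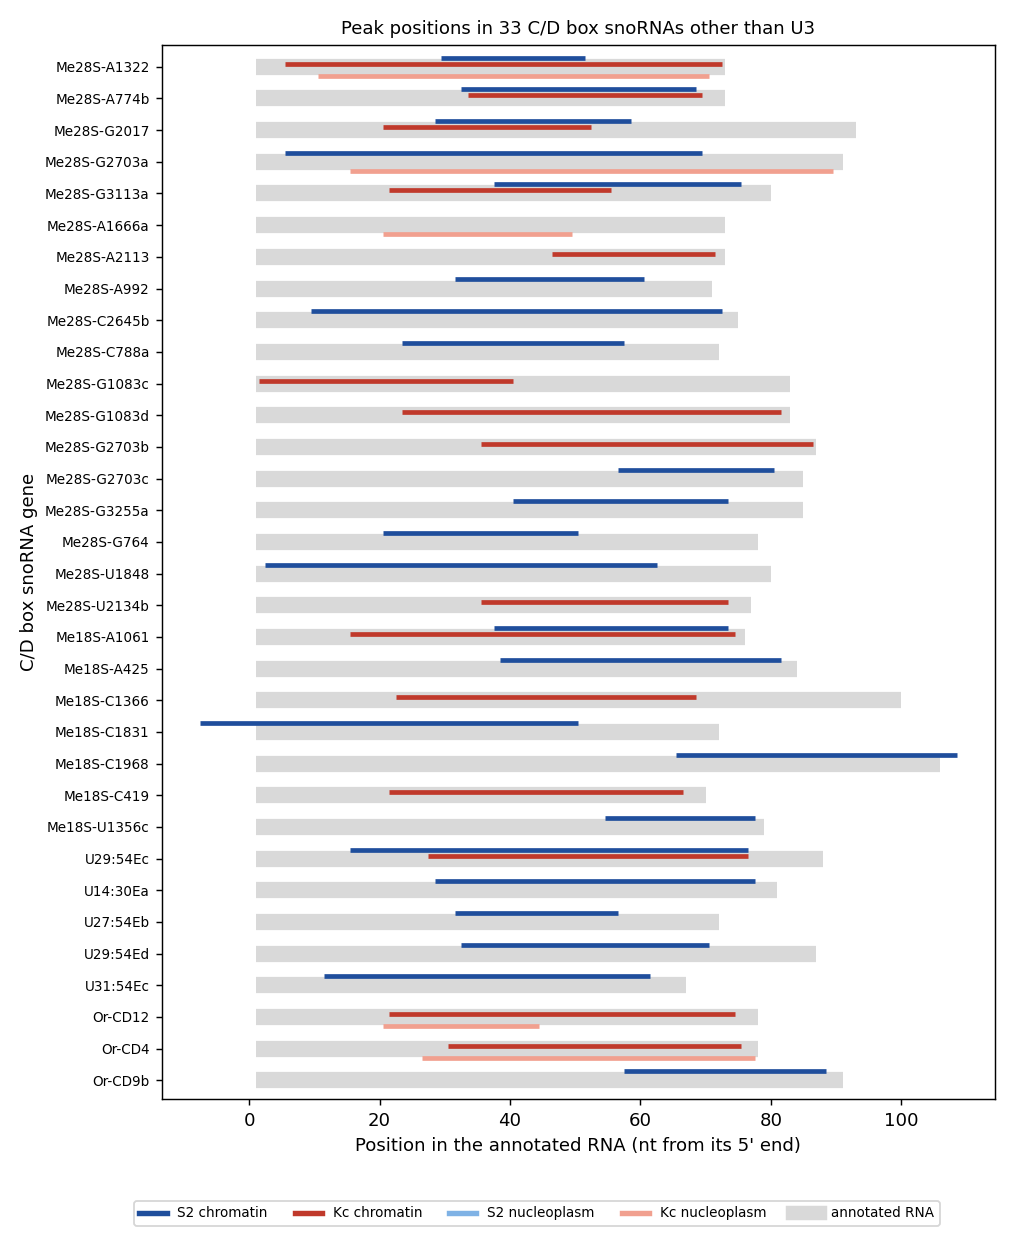
Each row is 1 of 33 C/D box snoRNAs other than U3 drawn to scale in nt from the 5' end (grey), with the peaks of each list as coloured lines. The 43 peaks lie over the middle and the 3' side of the RNAs, and 41 of them stay inside the grey bar.

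The 3' edges of the peaks were close to the end of the RNA. Over the 4 lists and without U3, 24 of 43 peaks ended within 10 nt of the annotated 3' end or just past it, and 6 of 43 began within 10 nt of the 5' end or before it. Examples of the first kind were Me28S-A1322 in Kc chromatin and Me28S-G2703b in Kc chromatin, which both ended 1 nt before the 3' end. Me28S-G1083c in Kc chromatin, at nt 2 to 40 of 83 nt, lay over the 5' side, while its copy Me28S-G1083d in the same list, at nt 24 to 81 of 83 nt, lay over the 3' side. No summit or score separates positions within a peak.

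The H/ACA peaks of Kc chromatin had a median midpoint nearer the 5' end than the C/D peaks. There 13 of 18 C/D peaks had their midpoint on the 3' side, against 13 of 29 H/ACA peaks (44.8%, 28.4 to 62.5%), and the median midpoint was at 62.2% of the RNA for C/D and 36.4% for H/ACA peaks. In S2 chromatin 22 of 27 C/D peaks and 6 of 7 H/ACA peaks had it on the 3' side. The Kc intervals of the classes overlapped, and several H/ACA genes had more than 1 peak, so this is a description of the lists.

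**Figure D5:**
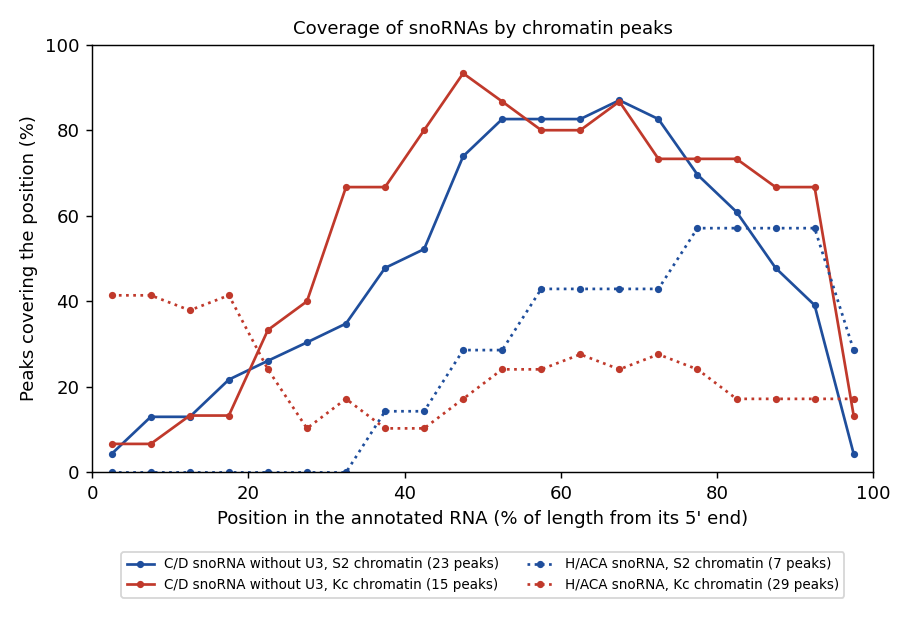
The percentage of peaks that cover each position of the annotated RNA, from the 5' end at 0 to the 3' end at 100, is drawn for C/D snoRNAs without U3 (solid) and H/ACA snoRNAs (dotted) in S2 chromatin (blue) and Kc chromatin (red). At 67.5% of the length, 87% of S2 and 86.7% of Kc peaks on C/D snoRNAs covered the position, and at 2.5% of the length 4.35% and 6.67% did. At 97.5% of the length the values were 4.35% and 13.3%, so the last bases were also mostly bare. At 92.5% they were 39.1% and 66.7%, against 13% and 6.67% at 7.5%. The highest Kc value was 93.3%, at 47.5%.

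The proteins of C/D particles were looked at beside their RNAs. Of 12 listed genes for core proteins, assembly factors and U3 factors, 2 had a peak, both in S2 chromatin, beside 3.64% of all annotated genes in that list. With 12 genes no difference from that share can be read. Fib, which encodes fibrillarin, had an exonic peak at 2R, 23073059 to 23073112. In nop5, which encodes another core protein, the peak at 2L, 6917234 to 6917264 lay in an intron, over snoRNA:nop5-x16-a, and so on a snoRNA and not on the messenger RNA. The other 10 (Nop56, hoip, U3-55K, rept, pont, spag, Nopp140, wcd, Phax and Tgs1) had no peak in any list.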

How the data were processed

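Cells were crosslinked, fractionated and processed by iCLIP with barcodes of 4 nt and 31 PCR cycles, per the labels' protocols. The submitters' processing notes name the build dm6 and the tools STAR 2.5.2b-2, cutadapt 3.5, UMI-tools and FastQC. Peaks were called on a Galaxy CLIP workflow, per the labels' protocols, and the sources used here do not give its settings. The authors deposited 1 list of peak starts, ends and strands for a line and fraction, with no read counts and a score of 0 in every peak. The deposited score was therefore not used.

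Peaks were placed on genes of Ensembl release 115 (BDGP6, dm6 coordinates; transposable elements left out) with Python 3.11.15, and intervals were computed with scipy 1.17.1. Coordinates are 1-based. A RefSeq table of the same assembly gave the same coordinates for 106 of 106 members. H/ACA genes are those with Psi, -aca or -ACA in the symbol. A host is a same-strand gene, not a small RNA gene, that spans the member. The overlap step was tested on simulated data. Every member with a peak is named, and positions are given for those in 2 or more lists, for U3 and as examples. The members, lists and rules were chosen with earlier results of these data known. No genome sequence was used here, so sequence features are not reported. Alternatives were a minimum peak width of 30 nt, an overlap of 10 nt, the peak midpoint in the gene, strand ignored, merged peaks and, added after the data were seen, copies of a guided site counted once, U3 left out and RefSeq coordinates.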

Additional observations from a re-analysis of the deposited data

How the results depend on the processing

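The results recomputed were the members with a peak in each list, by guided RNA and shared between lists, the share of midpoints on the 3' side and, added after seeing the data, the H/ACA genes with a chromatin peak. These 25 kept within 1.5 times their value, and the shares within their interval, with a peak overlap of at least 10 nt, with the peak midpoint inside the gene, with strand ignored, with overlapping peaks merged and with peaks of at least 30 nt. All of these settings but the last left every value as it was. With 54 of 56 peaks wholly inside the RNA and 0 members with an opposite-strand peak, they had little room to change a count of members. In the last setting members with a peak numbered 21 in S2 chromatin and 16 in Kc chromatin, H/ACA genes 6 and 20, and 6 members lost their peak in every list: Me28S-A2113, Me28S-A992, Me28S-G2703c, Me28S-A1666a, U27:54Eb and Me18S-U1356c. Or-CD12 then had a peak in 1 list in place of 2, and Me28S-A1322 in 2 in place of 3. With copies of a guided site counted once, an alternative chosen after seeing the data, there were 22 in S2 and 15 in Kc chromatin, and U3 counted as 1 in S2 chromatin, in Kc chromatin and in S2 nucleoplasm, which left 1 RNA in S2 nucleoplasm and 1 shared by the S2 fractions. Leaving U3 out, tried on 3 shares of midpoints, and RefSeq coordinates, tried on the 5 counts of members per list, both also chosen after seeing the data, changed none of these by that measure. Host classes, copies, segments, distances to the ends and chromosome arms were not recomputed. Counting identical sequences once was not run, since no sequence was used here. No paired analysis was possible because each line and fraction has 1 peak list with no values per replicate, and no replicate could be left out. Read depth is unknown, so a member without a peak is not shown to lack CLAMP.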

Other observations

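Among snoRNA genes outside the symbol rule and the H/ACA class, 4 of 33 were in the S2 chromatin list and 2 of 33 in the Kc chromatin list. The gene snoRNA:Dek-a (166 nt) had one near its 5' end in both, at nt 5 to 35 in S2 and nt 3 to 42 in Kc, and snoRNA:SC35-b (156 nt) had one at nt 106 to 138 in S2. Of 16 scaRNA genes, which act in Cajal bodies on spliceosomal RNAs, none was in the S2 chromatin list (0 of 16, which by the limit of 3 counts allows a share of up to 18.8%, while the Wilson interval reaches 19.4%) and 2 were in the Kc chromatin list, PsiU6-40 and PsiU2-55. Both guide pseudouridine formation by their names, and no scaRNA with the MeU symbol of methylation guides had a peak. With 2 of 16 scaRNA genes bearing a peak, this says little about the kind of guide.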
